A study of Mus musculus with 12 samples.

Results

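The genes described here encode myosin heavy and light chain isoforms and a cardiac myosin kinase, and their RNA was measured in mouse left atrium (LA) with and without activated Notch1. The 10 genes were chosen by name: *Myh6*, *Myh7* and *Myh7b* (heavy chains), *Myl1*, *Myl3* and *Myl4* (essential light chains), *Myl2*, *Myl7* and *Myl12a* (regulatory light chains) and *Mylk3* (kinase). All 10 were among the 54658 gene names in the count table. Of these, 9 passed the filter on low counts and were among the 13541 genes tested, and *Myl2* did not.

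Libraries came from 6 iNICD mice and 6 control littermates, 1 LA per library. The iNICD mice carried *αMHC-rtTA* and *tetO_NICD*, so that cardiomyocytes produced the Notch1 intracellular domain under doxycycline. The control mice also carried the *αMHC-rtTA* transactivator, but not *tetO_NICD*. All 12 animals were on a mixed background, were 2 to 3 months old at the start and received doxycycline chow for 3 weeks with no washout, and the groups held 4 females and 2 males (control) and 3 of each sex (iNICD). The promoter that drives the transactivator is that of *Myh6*, one of the genes described here, and the samples are whole tissue rather than sorted cardiomyocytes.

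Myosin is the motor of the sarcomere. Each molecule has a pair of heavy chains, which split ATP and pull on actin, and each heavy chain carries 1 essential and 1 regulatory light chain at its neck. The adult mouse heart uses the fast heavy chain α-MHC (*Myh6*), whereas the slower β-MHC (*Myh7*) dominates in the ventricle before birth and in slow skeletal muscle. Atrial cardiomyocytes use the light chains encoded by *Myl4* and *Myl7*, and ventricular cardiomyocytes use those encoded by *Myl3* and *Myl2*. Phosphorylation of the regulatory light chain by *Mylk3*, the cardiac myosin light chain kinase, tunes the force of contraction.

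Both atrial light chain genes were lower in the iNICD LA. *Myl4* fell in every iNICD library to below the lowest control, with a group mean at 0.594 of the control mean, and *Myl7* fell to 0.687 of the control mean with overlap in 1 library. The ventricular light chain gene *Myl3*, the 3 heavy chain genes, *Myl1*, *Myl12a* and *Mylk3* did not pass the test, and *Myl2* was not tested. *Myh7* varied 170-fold between libraries, from 13.1 to 2230 normalized CPM in iNICD and from 17.8 to 2155 in control.

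The 3 heavy chain genes each hold a microRNA in an intron, on the same strand. Their mature forms are shown because they tie the heavy chain loci together by sequence, with the seed (bases 2 to 8) in capitals, as RefSeq gives them on GRCm38.p6.
mmu-miR-208a-3p (in *Myh6*, chr14:54949072-54949093, minus strand): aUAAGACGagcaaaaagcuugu
mmu-miR-208b-3p (in *Myh7*, chr14:54975710-54975731, minus strand): aUAAGACGaacaaaagguuugu
mmu-miR-499-5p (in *Myh7b*, chr2:155622893-155622913, plus strand): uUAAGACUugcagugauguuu
The first 2 share the seed UAAGACG, and miR-499-5p has the seed UAAGACU. The libraries do not measure mature microRNAs. Reads counted on the hairpin rows numbered 12 to 42 per library for *Mir208a*, 0 to 3 for *Mir208b* and 0 for *Mir499*.

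The atrial regulatory light chain gene *Myl7* lies on chromosome 11 (GRCm38, 5896637 to 5898782, minus strand). The 250 bases before the only annotated start of its coding transcripts (chr11:5898783-5899032, minus strand) are shown because *Myl7* is 1 of the 2 members that fell, with 2 matched motifs in capitals.
*Myl7* upstream: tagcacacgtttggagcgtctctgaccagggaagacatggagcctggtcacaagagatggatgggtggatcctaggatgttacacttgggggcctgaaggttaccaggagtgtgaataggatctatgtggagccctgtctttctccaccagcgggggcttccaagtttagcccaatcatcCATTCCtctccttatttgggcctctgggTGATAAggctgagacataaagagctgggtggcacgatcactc
Of 4 motifs searched on both strands, CATTCC, an element bound by TEAD factors, begins 70 bases before the start. The other match, TGATAA, is an element of the GATA family and begins 42 bases before it. Among 32851 promoter windows of the same length, 12.6% held the TEAD element and 7.94% the GATA element. The remaining motifs were TGGGAA, the core of the RBPJ element used by Notch and present in 21.6% of all windows, and the E-box bound by HEY factors, CACGTG, present in 6.02%. Neither was in this *Myl7* window. The 10 members have 13 such windows, of which 6 had the TEAD element, 2 had the E-box, 1 had the RBPJ core and 1 had the GATA element. Only TGATAA was searched for the GATA family. Both *Myl2* windows (chr5:122092474-122092723 and chr5:122092939-122093188) lie apart from the start of the gene span at 122100951. The bases just before that start were not searched. *Myl4* (chromosome 11, 104550663 to 104595753, plus strand) had none of the 4 before its outermost start, but other coding transcripts of the gene have 3 further starts that lie 24783, 26322 and 26618 bases further in and were not searched. A match is a string of letters, and binding was not measured.

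Library depth was similar, with 21432632 to 27182038 reads counted on genes. *Notch1* had 2335 to 3311 counts in control and 71187 to 107667 in iNICD libraries, which matches the labels. Control replicate 5 stood apart on the first principal component (32.6% of the variance), at -77.4 against -20.2 to 22.7 for the others. Levels below are normalized CPM, counts scaled to library totals that edgeR had adjusted by TMM factors, and fold changes are iNICD over control. The edgeR test was the quasi-likelihood F test, with p-values adjusted over the 13541 genes by the Benjamini-Hochberg method. Of the 9 tested members, 2 were lower and 0 were higher at an adjusted p under 0.05 in edgeR, and DESeq2 and edgeR's exact test gave the same counts. At an unadjusted p under 0.05, 1 member was higher (*Myh7b*). Over all tested genes, 1.34% were lower and 2.78% higher, 4.12% in all. The median log2 fold change was -0.03 over the 9 members and -0.01 over all genes. In whole tissue, fewer cardiomyocytes and less RNA per cardiomyocyte cannot be told apart.

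*Myl4* encodes the atrial essential light chain, and none of the 50-base windows of its main transcript occur in another gene's transcripts, which was also so for *Myl7*. Its lowest, median and highest control libraries held 7001, 7597 and 8268 normalized CPM, and its iNICD libraries held 3891, 4488 and 5330. The 6 iNICD values all lay below the 6 control values, and over all tested genes 3.83% had such separate groups. Means were 7654 ± 464 in control and 4547 ± 516 in iNICD (SD, n = 6 per group), which gave -0.75 as log2 fold change (SE 0.09, adjusted p by edgeR = 3.2e-04). This placed *Myl4* at rank 61 of the 13541 genes by p, and the two-sided exact permutation test of the libraries gave p = 0.00216, the smallest it can give. The call held whichever library was left out, with log2 fold changes of -0.81 to -0.71. Fitted within each sex, the log2 fold change was -0.77 in females and -0.78 in males. The call was lost when only the 2 male controls and 3 male iNICD mice were compared, at a log2 fold change of -0.79 (edgeR adjusted p = 0.404).

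*Myl7* encodes the atrial regulatory light chain, the partner of *Myl4* on the atrial myosin neck. Control libraries held 4028 (lowest), 4719 (median) and 5107 (highest) normalized CPM, and iNICD libraries 2418, 3111 and 4234. In 5 of the 6 iNICD libraries *Myl7* was below every control, and iNICD replicate 6, at 4234, was above the lowest controls, replicate 5 at 4028 and replicate 2 at 4156. Means were 4597 ± 424 and 3160 ± 669 (SD, n = 6 per group), which gave -0.54 as log2 fold change (SE 0.13, adjusted p by edgeR = 0.0367, exact permutation p = 0.00649). The adjusted p rose above the threshold when control replicate 1, 3, 4 or 6 or iNICD replicate 1, 2, 3 or 4 was left out, to at most 0.0845. With male libraries only, the log2 fold change was -0.40 (edgeR adjusted p = 0.775). Without control replicate 5 or without iNICD replicate 6 the call held.

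**Figure D1:**
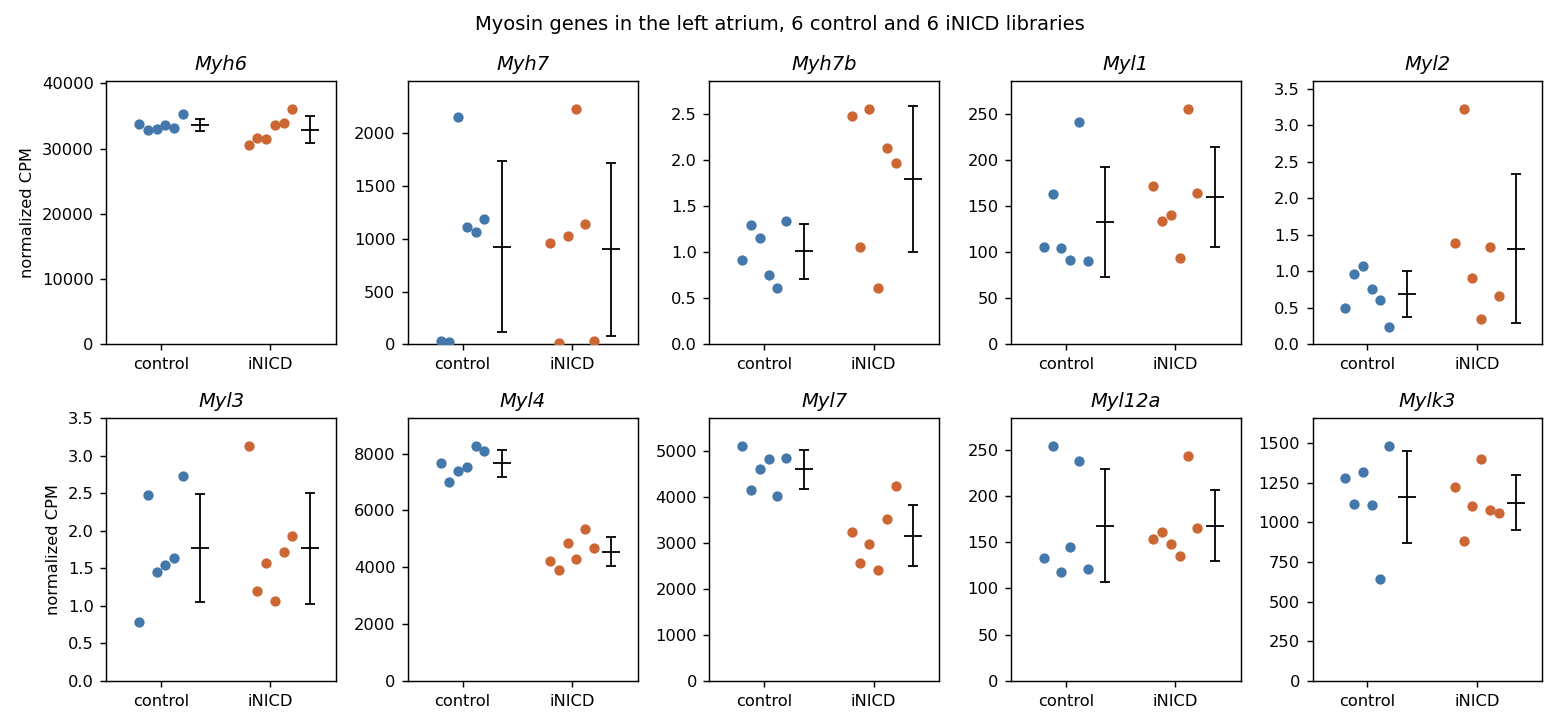
Normalized CPM of the 10 genes in 6 control (blue) and 6 iNICD (orange) libraries, each panel on its own linear axis from 0, with points in order of replicate number and bars for the mean and SD. *Myl4* is the gene whose groups do not overlap, *Myl7* overlaps in 1 iNICD library, and *Myh7* runs from 17.8 to 2155 in control and from 13.1 to 2230 in iNICD.

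The 2 ventricular light chain genes stayed near the limit of detection. *Myl2*, the ventricular regulatory light chain (chromosome 5, 122100951 to 122113472, plus strand), had 5 to 73 counts per library, and exceeded 1 CPM in only 4 libraries. Its normalized CPM were 0.687 ± 0.310 in control and 1.31 ± 1.02 in iNICD (SD, n = 6 per group), and without the filter on low counts the log2 difference came to 0.91 (SE 0.47, adjusted p by edgeR = 0.505). *Myl3*, the ventricular essential light chain (chromosome 9, 110741861 to 110769798, plus strand), had 19 to 77 counts, with 1.77 ± 0.715 and 1.76 ± 0.742 normalized CPM (log2 fold change 0.00, SE 0.32, adjusted p by edgeR = 0.997). At these counts a difference smaller than the scatter between libraries was not detectable.

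*Myl1*, the fast skeletal essential light chain (chromosome 1, 66924295 to 66945404, minus strand), ranged from 90.4 to 241 normalized CPM in control and from 93.5 to 255 in iNICD libraries. The highest values were in control replicate 5 and iNICD replicate 5, and the groups overlapped. The log2 difference came to 0.27 (SE 0.28, adjusted p by edgeR = 0.658). It was 0.52 without control replicate 5 (edgeR adjusted p = 0.237), 0.17 without control replicate 6 and 0.0754 without iNICD replicate 5. Of the 50-base windows of its main transcript, 32.1% also occur in a pseudogene, *Mylf-ps*, so reads there could be lost or split.

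*Myl12a*, a regulatory light chain of non-muscle and smooth muscle myosin (chromosome 17, 70993656 to 71002878, minus strand), had a mean of 168 ± 61.2 normalized CPM in control and of 168 ± 38.5 in iNICD (SD, n = 6 per group, edgeR adjusted p = 0.997). Values fell in 117 to 145 in 4 controls and at 237 and 254 in control replicates 5 and 2. Among iNICD libraries replicate 5 had 243 and the others 135 to 166. Of its 50-base windows 81.7% occur in other transcripts, mostly *Myl12b*, so its level is uncertain. Without control replicate 5 its log2 difference was 0.12 (edgeR adjusted p = 0.823).

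*Mylk3* (chromosome 8, 85324303 to 85386345, minus strand) had 642, 1200 and 1483 normalized CPM in the lowest, median and highest control library and 885, 1091 and 1402 in iNICD. The low control was replicate 5, and the other 5 controls held 1107 to 1483. Means were 1159 ± 289 and 1125 ± 174 (SD, n = 6 per group), with a log2 fold change of -0.04 and a standard error of 0.17 (edgeR adjusted p = 0.926). Without control replicate 5 it was -0.17 (edgeR adjusted p = 0.475).

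*Myh6* (chromosome 14, 54941921 to 54966927, minus strand) took the most reads of the 10 genes, with 2.86% to 3.60% of all reads on genes. Control libraries ranged from 32809 to 35322 normalized CPM and iNICD libraries from 30517 to 36036, and the 2 ranges overlapped. Means were 33643 ± 903 and 32890 ± 2034 (SD, n = 6 per group), which gave -0.03 as log2 fold change (SE 0.08, adjusted p by edgeR = 0.871).

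*Myh7b*, the heavy chain gene that hosts miR-499 (chromosome 2, 155611212 to 155634307, plus strand), was at the edge of detection, with 13 to 70 counts. Its mean was 1.01 ± 0.300 normalized CPM in control and 1.80 ± 0.793 in iNICD (SD, n = 6 per group). In 4 of 6 iNICD libraries it was above every control, and in 1 it was just below the lowest control. The log2 fold change of 0.83 had a standard error of 0.34 and did not pass the threshold (edgeR adjusted p = 0.218).

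*Myh7* lies next to *Myh6* on chromosome 14 (GRCm38, 54970684 to 54994626, minus strand), 3756 bases upstream of it. Its group means hardly differed, at 927 ± 807 in control and 899 ± 823 in iNICD (SD, n = 6 per group, log2 fold change -0.04, SE 1.15, adjusted p by edgeR = 0.990). The means hid a wide scatter, in which the counts fell in 3 ranges, set here after the values were seen. In 4 libraries, control replicates 1 and 2 and iNICD replicates 2 and 6, there were 700, 482, 297 and 722 counts. In 6 libraries, control replicates 4, 5 and 6 and iNICD replicates 1, 3 and 5, there were 22724 to 28090. Control replicate 3 and iNICD replicate 4 had 52091 and 58886. In normalized CPM, the gap between the lowest 4 and the rest was 32.4-fold, and that between the highest 2 and the rest 1.82-fold. Each range held as many control as iNICD libraries, and each held both sexes. With a standard error of 1.15 on the log2 scale, a difference of 2-fold between the groups was not detectable for this gene.

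Other genes of the locus and other ventricular genes were read beside this pattern. *Myl2* and *Myl3* stayed at 5 to 73 and 19 to 77 counts in all 12 libraries, and *Myh6* stayed within 30517 to 36036 normalized CPM. *Mhrt*, a long noncoding RNA transcribed from the opposite strand between *Myh6* and *Myh7*, ranged from 281 to 730 normalized CPM. It was highest in the 2 libraries with the most *Myh7*, but libraries at the bottom of the *Myh7* order held 500 to 557, more than 5 of the 6 middle ones. Of the *Mhrt* exon bases, 39.9% lie over *Myh7* exons. The strand setting of the counting is not given in the sources used here, so, although the study's methods describe stranded reads, it is not known whether reads of the 2 genes were separated there. Of the 50-base windows of the *Myh7* transcript, 22.6% also occur in *Myh6*.

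The 5 nearest tested genes on either side of the *Myh6* and *Myh7* pair were also listed. For 9 of these 10, the highest library exceeded the lowest by 1.21-fold to 2.18-fold. The exception was *Ppp1r3e*, which encodes a regulatory subunit of protein phosphatase 1 and lies 93134 bases from *Myh7* (chromosome 14, 54872669 to 54877550, minus strand), and it is singled out here after its values were seen. It had 20 and 13 counts in control replicate 3 and iNICD replicate 4, the libraries with the most *Myh7*. It had 85, 76, 88 and 103 counts in the 4 libraries with the least *Myh7*, and 51 to 69 in the other 6. From lowest to highest it varied 8.58-fold in normalized CPM. These are single libraries ordered by a measured value, so no test was made.

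**Figure D2:**
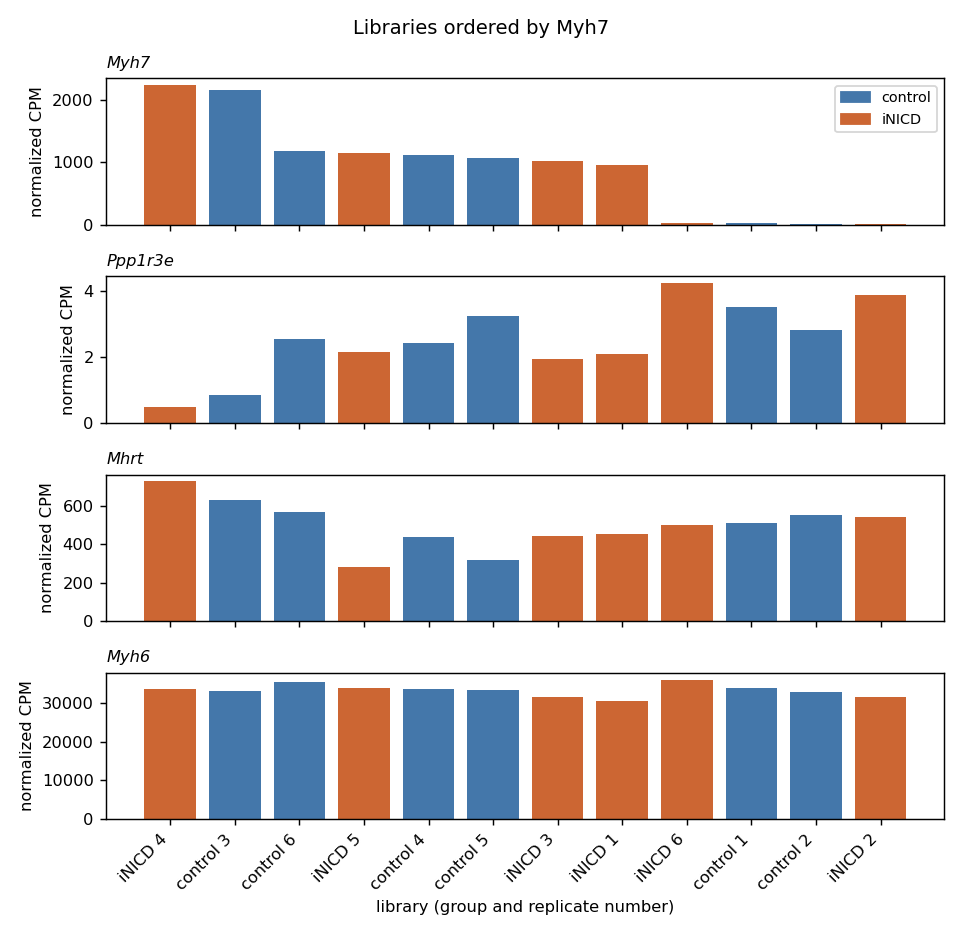
Normalized CPM of *Myh7*, *Ppp1r3e*, *Mhrt* and *Myh6* in each of the 12 libraries (blue, control; orange, iNICD), ordered from the most to the least *Myh7*, on linear axes from 0. *Myh7* stands at 2155 and 2230 in 2 libraries, at 958 to 1185 in 6 and at 13.1 to 29.6 in 4, *Ppp1r3e* is lowest where *Myh7* is highest, and *Myh6* is level throughout.

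Isoform composition was then compared as ratios within each library, from counts per base of the deposited gene length, with an exact permutation test of the log2 ratios (two-sided, n = 6 per group) and adjustment over 8 ratios. A ratio needs no scaling between libraries, but it also rises when only its denominator falls. *Myl7* to *Myh6* was 1.38 to 1.72 in control and 0.819 to 1.34 in iNICD, with all 6 iNICD libraries below all controls, a log2 difference of -0.53 (exact p = 0.00216, adjusted p = 0.0173). The adjusted p stayed below 0.05 whichever library was left out. *Myl4* to *Myh6*, chosen after the values were seen and outside the 8, was 0.310 to 0.361 in control and 0.178 to 0.228 in iNICD, a log2 difference of -0.72 (exact permutation p = 0.00216).

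*Myl1* to *Myl4*, the skeletal over the atrial essential light chain, was 0.0250 to 0.0652 in control and 0.0488 to 0.107 in iNICD, with 4 iNICD libraries above every control. The log2 difference was 1.06 (exact permutation p = 0.0108, adjusted p = 0.0433), and the adjusted p rose above 0.05 in 8 of the 12 fits with a library left out, those without control replicate 1, 3 or 4 or iNICD replicate 1, 2, 3, 5 or 6, to at most 0.0779. Taken alone, *Myl1* had a log2 fold change of 0.27 and *Myl4* of -0.75, so most of the 1.06 repeats the fall of *Myl4*. As a share of the 3 essential light chains, *Myl4* made up 93.8% to 97.5% in control and 90.3% to 95.3% in iNICD libraries, and *Myl1* nearly all of the remainder. *Myl3* made up at most 0.154% in any library. Per length of the main transcript the share of *Myl1* was smaller, at 1.21% to 3.09% in control and 2.33% to 4.97% in iNICD libraries, and that of *Myl3* was at most 0.0664%.

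The other 6 ratios did not pass the adjusted threshold when all 12 libraries were permuted together, and 4 of them passed it in some fits with a library left out. Permuted within sex, *Myl2* to *Myl7* and *Mylk3* to *Myl7* passed (exact permutation, adjusted p = 0.0229 and 0.04). *Myl3* to *Myl4* and *Myl2* to *Myl7*, ventricular over atrial in each light chain class, had log2 differences of 0.77 and 1.29 (exact permutation p = 0.0346 and 0.0411, adjusted p = 0.0658 for both). The first passed without control replicate 2 (exact permutation, adjusted p = 0.0476) or control replicate 6 (0.0390), and the second without iNICD replicate 4 (0.0476). Taken alone, *Myl3* had a log2 fold change of -0.0033 and *Myl4* of -0.75, so the first ratio repeats the fall of *Myl4*. The second includes the fall of *Myl7* (-0.54), and *Myl2*, near the limit of detection, was not tested. For the next ratio, *Mylk3* alone had a log2 fold change of -0.04, so that ratio repeats the fall of *Myl7*. *Mylk3* to *Myl7* had a log2 difference of 0.55 (exact permutation p = 0.0216, adjusted p = 0.0577), and it passed without control replicate 2 (adjusted p = 0.0476), control replicate 6 (0.0390) or iNICD replicate 6 (0.0173). *Myl4* to *Myl7* differed by -0.20 with a standard error of 0.12 (exact permutation p = 0.147, adjusted p = 0.168), by -0.14 without control replicate 5 and by -0.12 without iNICD replicate 6. *Myh7b* to *Myh6* differed by 0.75 (exact permutation p = 0.0887, adjusted p = 0.118), and by 1.03 without iNICD replicate 4 (adjusted p = 0.0346). *Myh7* to *Myh6* differed by -0.08 with a standard error of 1.79 (exact permutation p = 0.844, adjusted p = 0.844). Of the RNA of *Myh6*, *Myh7* and *Myh7b* together, per deposited length, *Myh7* made up 0.0423% to 4.84% in control and 0.0323% to 4.92% in iNICD libraries. Per length of the main transcript, the share of *Myh7* was 0.0531% to 6.00% and 0.0405% to 6.09%.

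**Figure D3:**
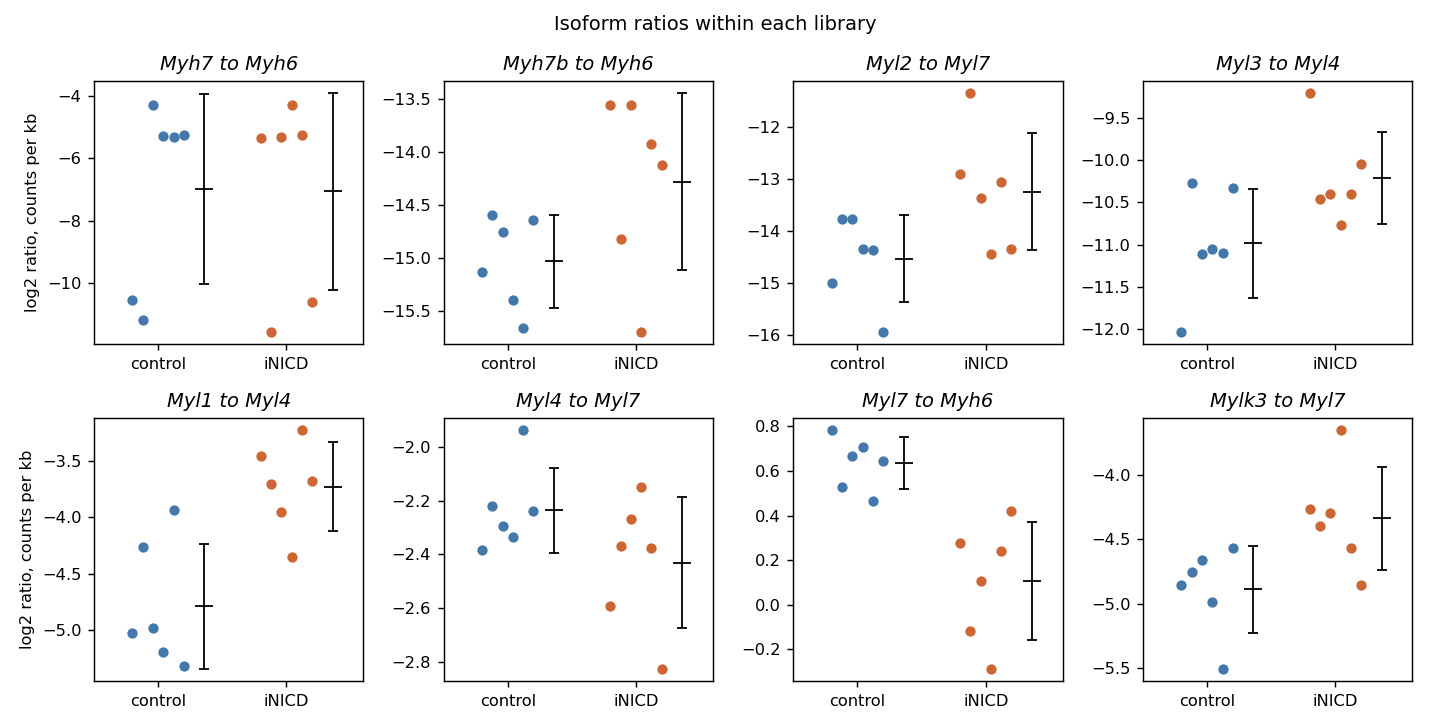
Log2 ratio of counts per kb for 8 pairs of genes in each library (blue, control; orange, iNICD), with the mean and SD beside the points and a separate axis in each panel. *Myl7* to *Myh6* has no overlap between groups, *Myl1* to *Myl4* is higher in most iNICD libraries, and *Myh7* to *Myh6* splits in the same way within both groups.

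Which atrial light chain RNA is more abundant depended on the length used. Per kb of deposited length, which covers all annotated exons, control means were 7791 for *Myl7*, 5002 for *Myh6* and 1651 for *Myl4* in normalized CPM per kb. Per kb of the main transcript, an alternative added after seeing the data, they were 7791 for *Myl7*, 5600 for *Myh6* and 8708 for *Myl4*. *Myl4* exons add up to 4637 bases in the annotation but only 879 in its main transcript. Under either length, *Mylk3* (271 or 313) lay above *Myh7* (108 or 151), *Myl2*, *Myl3* and *Myh7b* were the 3 lowest members, and differences between the groups within a gene are the same.

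Other genes of the contractile motor and its control were read from lists. Of 16 other myosin chain genes, 9 were tested, 1 rose and 0 fell. The one that rose was *Myh8*, the perinatal skeletal heavy chain, from 1.66 ± 0.924 to 4.61 ± 1.30 in normalized CPM (SD, n = 6 per group, log2 fold change 1.47, SE 0.33, adjusted p by edgeR = 0.0232). Of 16 light chain kinase and phosphatase genes, 0 passed in either direction in edgeR's quasi-likelihood test, 3 were higher at an unadjusted p under 0.05, and DESeq2 and edgeR's exact test each called 1 higher. Of 9 tested genes for myosin folding and assembly 1 rose, *Smyd2*, a lysine methyltransferase found at the sarcomere, from 8.62 to 20.9 normalized CPM (log2 fold change 1.28, SE 0.17, adjusted p by edgeR = 7.54e-04). Of 25 tested genes known to regulate myosin isoform genes, *Hey1* (log2 fold change 1.77) and *Tead1* (0.45) rose and *Tbx5* (-0.67) fell, and 22 did not pass. At an unadjusted p under 0.05, 8 of the 25 were higher and 4 lower. DESeq2 called 4 higher and 2 lower, and edgeR's exact test 2 higher and 3 lower.

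**Figure D4:**
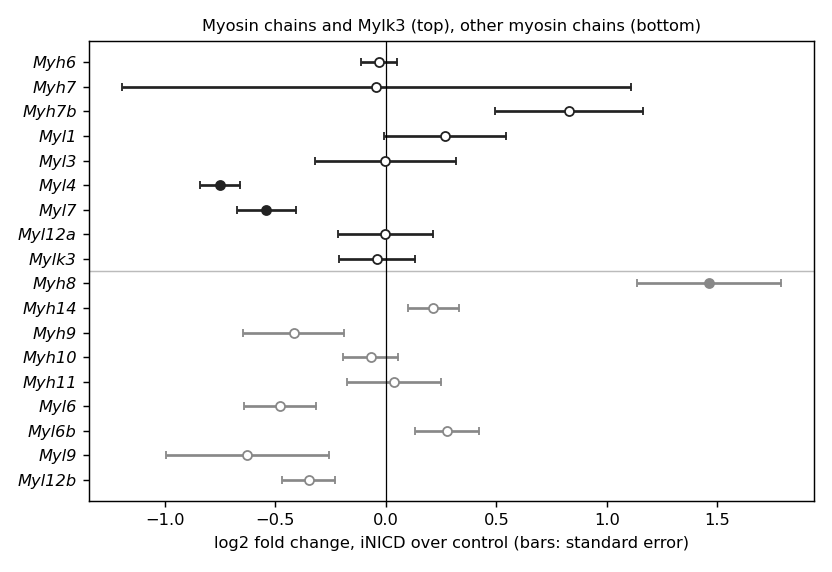
Log2 fold change (iNICD over control) with its standard error for the 9 tested members (black, above the line) and 9 other tested myosin chain genes (grey, below it), filled where the edgeR adjusted p is under 0.05. *Myl4* and *Myl7* lie below 0 and *Myh8* above, and the bar of *Myh7* is the widest.

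Markers of the tissue and of other cells were read beside the fall of *Myl4* and *Myl7*. Among 6 cardiomyocyte markers 1 fell, *Tnnt2* (log2 fold change -0.44), and their summed level was 28174 to 46201 normalized CPM in control, highest in replicate 5, and 23552 to 30965 in iNICD. Among 7 atrial markers 2 fell, *Nppa* (-2.33) and *Sln* (-0.64), with sums of 23366 to 32260 and 3104 to 9334. Ventricular markers, with 1 of 4 tested genes higher (*Fhl2*, 1.17), summed to 477 to 1386 and 901 to 1215. Skeletal muscle markers, with 1 of 3 tested genes higher (*Tnni2*, 1.68), summed to 5.17 to 10.6 and 8.60 to 13.0, and the defining *Myh1*, *Myh2* and *Myh4* had at most 11, 8 and 5 counts in any library.

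None of the 7 smooth muscle, 5 fibroblast, 5 endothelial, 4 epicardial and 4 leukocyte markers passed the edgeR test, 0 of these 25 had an unadjusted p under 0.05, and DESeq2 called 0. Fibroblast markers summed to 1907 to 2501 in control and 1879 to 2773 in iNICD, smooth muscle markers to 423 to 609 and 447 to 650, and endothelial markers to 658 to 961 and 622 to 750. Epicardial markers summed to 196 to 258 and 124 to 239, and leukocyte markers to 96.9 to 124 and 95.9 to 143. Control replicate 5 had the highest control sum of the atrial, skeletal muscle, smooth muscle and endothelial markers and the lowest of the ventricular and leukocyte markers. Lung markers were near 0, at most 0.460. The part of cell composition in the fall of *Myl4* and *Myl7* was not tested.

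Across the 12 libraries, after subtraction of each group mean, the genes whose log2 CPM followed *Myl4* most closely were *Dnaaf5* (Pearson r = 0.896), *Arrdc3* (0.886) and *Psma7* (0.886), out of 9364 genes whose mean was 10 CPM or more. For *Myl7* they were *Pdcd2l* (0.940), *Dnpep* (0.887) and *Mien1* (0.871). These are the highest of many, over libraries that share depth and scaling, and are given as a description. Spearman's rho was 0.818 to 0.909 for the 6, and r without the 2 libraries farthest from the median was 0.753 to 0.927. Of the 6, *Mien1* also fell (log2 fold change -0.37, edgeR adjusted p = 0.0167).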

How the data were processed

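LA libraries of 6 iNICD and 6 control mice were compared. The authors deposited raw read counts per gene name, without normalization, with a gene length in bases, another deposited unit. Submitters' processing notes name cutadapt, STAR 2.4.2a, featureCounts, edgeR and mm10. The paper also describes a route by TopHat2 and HTSeq, and the table does not say which was used. It holds 37 mitochondrial genes. Counting by strand is not given in the sources used here. Depth was 21432632 to 27182038 counts per library, and small counts are limited by counting error.

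Groups, replicate numbers and sex came from titles, descriptions and characteristics. Genes over 1 CPM in at least 6 libraries were tested (13541) with edgeR 4.0.16 in R 4.3.3, by TMM normalization and the two-sided quasi-likelihood test. An adjusted p (Benjamini-Hochberg) under 0.05 was a call, and SE is the standard error of a log2 fold change, from its F statistic. Ratios used counts plus 0.5 per kb of deposited length and 924 exact splits (smallest p 0.00216), with scipy 1.17.1. Tested on simulated counts (13414 genes, iNICD against control), the test recovered 89 of 100 genes at 2-fold and 100 of 100 at 4-fold, with 12 false calls in 201. The changed genes were drawn only from genes above a level that *Myl2*, *Myl3* and *Myh7b* do not reach. Falls as small as those of *Myl4* and *Myl7* were not simulated.

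Positions and transcripts are from GENCODE M21 on GRCm38, and promoter and miRNA sequences from RefSeq (GRCm38.p6), which held all 10 members. Named genes are the members, up to 5 genes of each list that passed in each direction, paralogs or overlapping genes where a count bears on a member, *Notch1* as the check of the transgene, and for *Myl4* and *Myl7* the 3 genes most like each. Outside this rule, defining skeletal markers and the miRNA rows in heavy chain introns are given, and *Ppp1r3e* was chosen after its values were seen. Members and lists were chosen with earlier results of these data known. Alternatives were DESeq2 1.42.0, edgeR's exact test, other normalizations and filters, sex, replicate blocks, each library left out and other ratio settings.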

Additional observations from a re-analysis of the deposited data

Results flagged for a closer look

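In a group of 6, a library was marked where its gap to the nearest other exceeded Dixon's critical share of the range of the group. Of 36 groups examined, 3 had such a library, and chance marks about 1 in 20 groups, or 1.8 here. *Myl12a* was 243 normalized CPM in iNICD replicate 5, against 135 to 166 in the other iNICD libraries. *Myl2* was 3.22 normalized CPM in iNICD replicate 2, against 0.341 to 1.38 in the others. The log2 ratio of *Myl4* to *Myl7* was -1.94 in control replicate 5, which also stands apart on the first principal component, against -2.38 to -2.22 in the other controls. No difference between the sexes was detected for a member (interaction in edgeR's quasi-likelihood test, lowest adjusted p = 0.916 over the members), with only 2 male controls. For *Myl3* the fitted log2 fold change was 0.33 in females and -0.48 in males, with a standard error of 0.66 for the difference, and for *Myl7* it was -0.68 and -0.39, with 0.27. Over all 13541 genes this test called 0, with 501 at an unadjusted p under 0.05, and DESeq2 called 1.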

How the results depend on the processing

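The fall of *Myl4* and *Myl7* kept its direction under every alternative run. Their count of 2 went to 0 with male libraries only (5 libraries) and to between 1 and 2 when a library was left out. Of all genes, 377 higher and 181 lower became 615 and 444 with DESeq2 and 8 and 0 with male libraries, 279 were lower with edgeR's exact test, and 90 to 310 were lower with a library left out (310 without control replicate 5). The 4 higher and 1 lower of the listed genes became 7 and 3 with DESeq2, and 1 to 3 lower with a library left out. Values near 0 changed sign: *Myl3* to 0.32 in females, *Mylk3* to 0.14 in males, *Myl12a* to 0.00285 with over 1 CPM required in all 12 libraries. With a library left out, log2 fold changes ran from -0.56 to 0.40 for *Myh7*, 0.0754 to 0.52 for *Myl1*, -0.24 to 0.15 for *Myl3*, -0.14 to 0.14 for *Myl12a* and -0.17 to 0.0359 for *Mylk3*. The log2 differences ran from -0.92 to 0.83 for *Myh7* to *Myh6*, 0.60 to 1.03 for *Myh7b* to *Myh6*, 0.95 to 1.23 for *Myl1* to *Myl4*, 0.91 to 1.53 for *Myl2* to *Myl7*, 0.56 to 0.91 for *Myl3* to *Myl4*, -0.25 to -0.12 for *Myl4* to *Myl7* and 0.41 to 0.66 for *Mylk3* to *Myl7*. Permuted within sex, *Myl2* to *Myl7* (1.48) and *Mylk3* to *Myl7* (0.57) passed the threshold. The causes were not tested. Counts of 5 to 77 limit *Myl2*, *Myl3* and *Myh7b*.

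The correlations did not settle whether the replicate numbers pair the samples. By title number, same-numbered libraries correlated at -0.153 to 0.372, over 0.1 in 4 of 6 pairs. Of the 6 controls, 3 correlated best with the iNICD library of their own number. With the replicate block by title number 2 members were lower and 3 listed genes were lower, and the log2 fold change of *Myl12a* turned to 0.0453, and to 0.0471 under the block by description number. With exact sign flips in pairs, whose smallest p is 0.03125, *Myl7* to *Myh6* (-0.53) and *Myl1* to *Myl4* (1.06) did not pass, each with an adjusted p of 0.1 by title number and 0.0833 by description number. After adjustment over the 8 ratios, a ratio could pass only if most of them had this smallest p. The sign flips therefore cannot decide whether these ratios differ.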
